A study of Mus musculus with 21 samples.

Results

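The 9 genes described here are transcripts by which neutrophils are usually recognised: S100a8, S100a9, Csf3r, Ltf, Ngp, Camp, Lcn2, Retnlg and Cxcr2. They were taken by symbol from a deposited table of 18762 genes, and each symbol stood on 1 entry. All 9 were above 0 in every library and passed a filter of at least 1 FPKM (fragments scaled to transcript length and to the fragments mapped) in at least 3 libraries, as did 12433 genes in all. The samples were the apex of ICR mouse hearts on postnatal day 7, after the tip of the ventricle had been cut off on day 1. Isoproterenol, which stimulates β-adrenergic receptors, was given to 1 group. Of the 5 anti-arrhythmic drugs, amiodarone acts mainly on potassium channels, metoprolol and propranolol block β-adrenergic receptors, lidocaine acts on sodium channels, and ivabradine slows the pacemaker current. These drugs went under the skin on 7 consecutive days, and the control group is labelled with apical resection only, so that its injections, if any, are not stated here. Each of the 7 groups had 3 libraries, and every group carried the resection, so there is no uninjured heart among them. No dose is stated, nor how many animals stand behind a group. The p-values below therefore measure the spread between libraries, which may be technical.

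Neutrophils are made in the bone marrow, and in newborn mice also in the liver and spleen, and they load their granules in a fixed order while they mature. Precursors first make the enzymes of the primary granules, then, at the myelocyte stage, the proteins of the secondary granules, among them lactoferrin (Ltf), neutrophilic granule protein (Ngp), the cathelicidin precursor (Camp) and lipocalin 2 (Lcn2). The cells that leave the marrow carry S100a8 and S100a9, the subunits of calprotectin, and the receptors Csf3r, for the growth factor G-CSF, and Cxcr2, for CXC chemokines. After cardiac injury they are among the first blood cells to enter the tissue. The 9 genes are therefore given as mature genes (S100a8, S100a9, Csf3r), precursor granule genes (Ltf, Ngp, Camp) and 3 others (Lcn2, Retnlg, Cxcr2). S100a8 and S100a9 are also made by monocytes, and Lcn2 by several other cells under inflammation. In RNA from whole tissue, a change in the number of cells of a type and a change in RNA per cell cannot be told apart.

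Ventricular muscle transcripts dominated every library, with 6 cardiomyocyte markers summing to between 35515 and 41382 FPKM, which fits the labelled tissue. The sum of all FPKM ran from 496304 to 552905. Some libraries stood apart and bear on what follows. The second control library held by far the highest S100a8, S100a9 and Csf3r of the 21, and the calls of the 9 genes and of the marker lists against the control are also given without it. Transcripts of other tissues were highest in 4 libraries: the skeletal muscle gene Mylpf at 62.7 FPKM in control 3, the atrial gene Myl7 at 176 FPKM in isoproterenol 3, the lung gene Sftpc at 222 FPKM in amiodarone 2 and the liver gene Alb at 10.8 FPKM in propranolol 1. These 4 were taken as the highest library for each marker, and other libraries were not free of such transcripts. Fast skeletal muscle genes summed to 63.9 FPKM in amiodarone 3 and 32.6 FPKM in control 2, and lung epithelial genes to 10.5 FPKM in lidocaine 1. Leaving out these 4 together was an alternative for every result. Whether a call lost in it was lost through these transcripts was not tested.

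S100a8 and S100a9 were the most abundant of the 9 genes in every group. S100a8 stood at 4.31, 3.78 and 2.02 FPKM in the isoproterenol libraries, at 24.3, 24.0 and 27.1 FPKM in the amiodarone libraries, and at 6.98, 54.5 and 9.05 FPKM in the controls. S100a9 stood at 2.75, 3.25 and 3.10 FPKM with isoproterenol, at 31.5, 30.8 and 32.4 FPKM with amiodarone, and at 9.24, 62.2 and 6.43 FPKM in the controls. The 3 amiodarone libraries thus lay close together and above 2 of the 3 controls, with the remaining control higher still, while the isoproterenol libraries lay below all controls. In the 12 libraries of metoprolol, propranolol, lidocaine and ivabradine, S100a8 ran from 3.83 to 10.7 FPKM and S100a9 from 5.34 to 13.9 FPKM, near the 2 lower controls. Group means of S100a9 were 31.5 ± 0.838 FPKM with amiodarone and 26.0 ± 31.4 FPKM in controls (SD, n = 3 each), so the control mean is set by 1 library.

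Csf3r, the G-CSF receptor, behaved differently from the calprotectin genes. Its levels were 1.03, 1.09 and 0.870 FPKM with isoproterenol, 1.85, 2.33 and 2.44 FPKM with amiodarone, and 1.84, 5.79 and 2.53 FPKM in controls. Amiodarone and control libraries overlapped, and all 12 libraries of the other anti-arrhythmic drugs, at 0.840 to 1.68 FPKM, lay below every control.

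**Figure D1:**
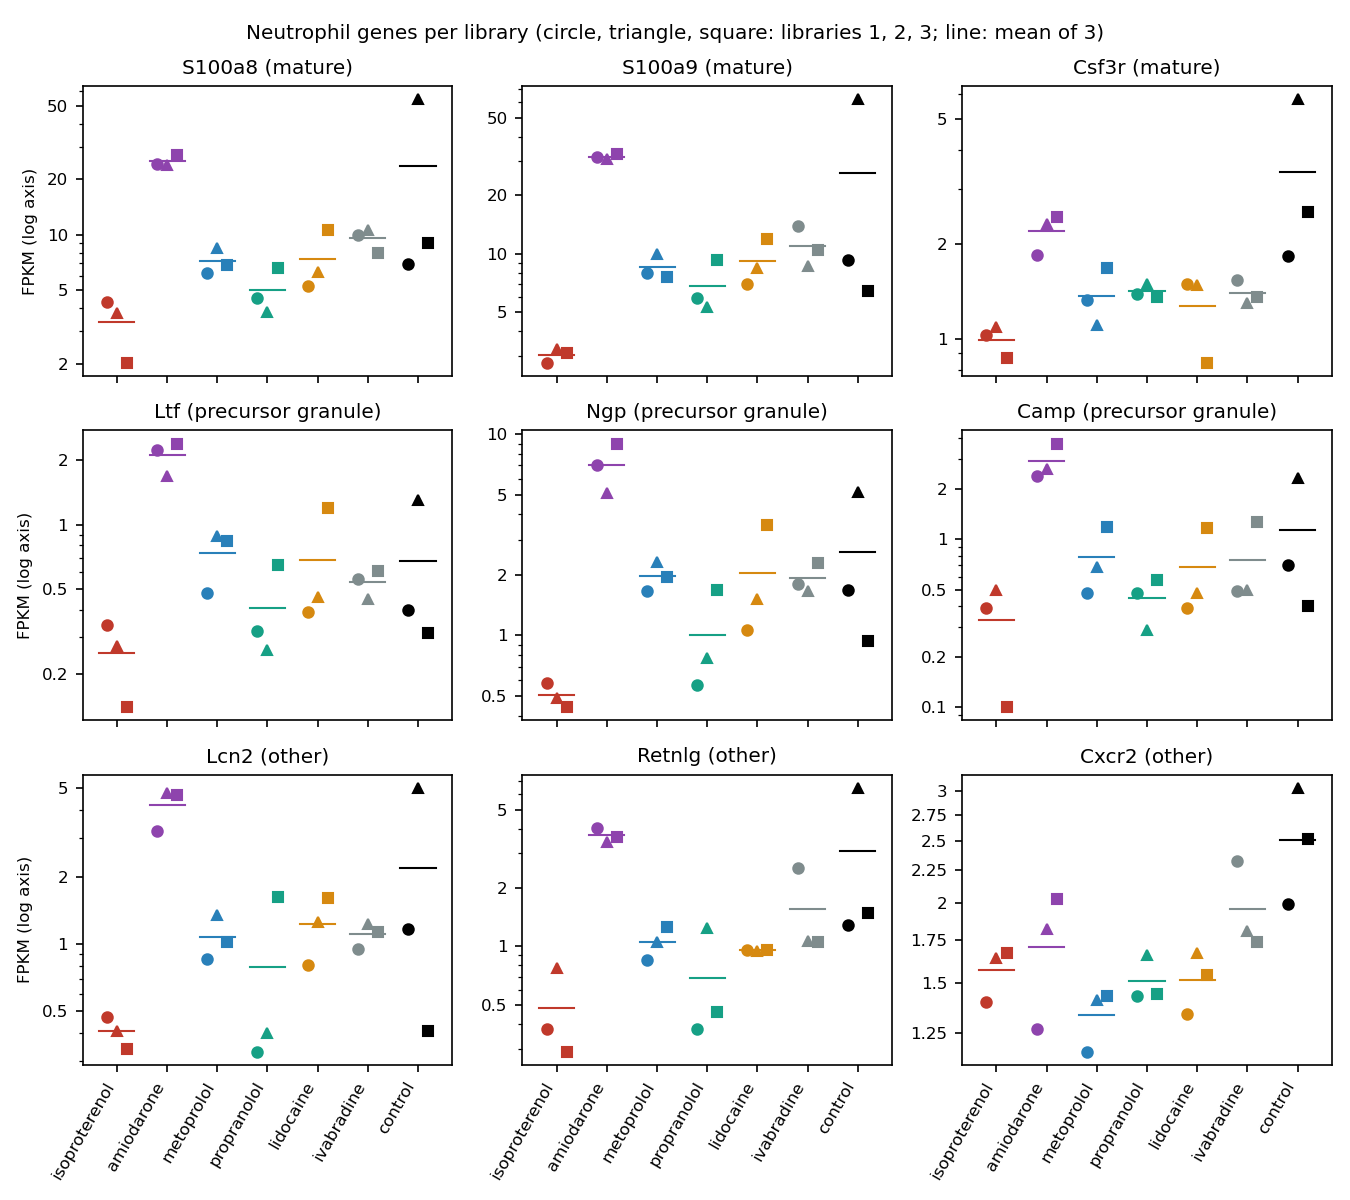
FPKM (log axis, different range in each panel) of the 9 genes in each library, by group, with a line at the mean of 3 libraries. The amiodarone libraries are high in the panels of S100a8, S100a9, Ltf, Ngp, Camp, Lcn2 and Retnlg, the isoproterenol libraries are low in all but Cxcr2, and the triangle of control 2 stands far above the other controls in S100a8 (54.5 FPKM) and S100a9 (62.2 FPKM).

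The precursor granule genes were far less abundant, and the amiodarone libraries were again high. Ngp stood at 0.58, 0.49 and 0.44 FPKM with isoproterenol, at 7.07, 5.09 and 9.0 FPKM with amiodarone, and at 1.68, 5.16 and 0.94 FPKM in controls. Ltf stood at 0.34, 0.27 and 0.14 FPKM with isoproterenol, at 2.24, 1.70 and 2.40 FPKM with amiodarone, and at 0.40, 1.31 and 0.31 FPKM in controls. Camp stood at 0.39, 0.50 and 0.10 FPKM with isoproterenol, at 2.39, 2.63 and 3.72 FPKM with amiodarone, and at 0.70, 2.33 and 0.40 FPKM in controls. For Ltf and Camp every amiodarone library was above every control, as in 13.0% of tested genes, but for Camp only by 2.39 against 2.33 FPKM. For Ngp the lowest amiodarone library lay just under the highest control (5.09 against 5.16 FPKM). In the 12 libraries of the other anti-arrhythmic drugs Ngp ran from 0.57 to 3.56 FPKM, Ltf from 0.26 to 1.20 FPKM and Camp from 0.29 to 1.26 FPKM, with lidocaine 3 the highest for Ngp and Ltf and ivabradine 3 the highest for Camp. Ltf reached 1 FPKM in 5 libraries, of which 2 were not amiodarone libraries, so it entered the test only because of the group in which it was high.

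Values this low rest on few sequenced fragments. The low values of Camp, Lcn2 and Retnlg fell on regular steps, 1 fragment being worth 0.0970 FPKM for Camp, 0.0670 FPKM for Lcn2 and 0.0955 FPKM for Retnlg (largest distance from a whole number 0.10, 0.11 and 0.07 fragments). By these steps Camp was read from 4, 5 and 1 fragments in the isoproterenol libraries, 25, 27 and 38 in the amiodarone libraries, and 7, 23 and 4 in the controls. The isoproterenol libraries and the 2 lower controls thus differed by few fragments. Retnlg was read from 4, 8 and 3 fragments with isoproterenol, 43, 36 and 38 with amiodarone, and 13, 66 and 15 in controls. The distances above hold for the low values only. Counts of the high libraries are rounded and less exact, as for Camp in control 2, at 23.47 fragments before rounding. Steps in 29 low genes with 1 annotated transcript put the depth at a median of 17400000 fragments (quartiles 16800000 and 17700000, with transcript lengths from GENCODE), and the relative step of the libraries ran from 0.972 to 1.034, so depth differed little between them.

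Among the remaining 3 genes, Lcn2 and Retnlg were again high in the amiodarone libraries and Cxcr2 was not. Lcn2, a siderophore-binding protein that withholds iron from bacteria, stood at 0.47, 0.41 and 0.34 FPKM with isoproterenol, at 3.23, 4.76 and 4.66 FPKM with amiodarone, and at 1.17, 5.03 and 0.41 FPKM in controls. Retnlg, a resistin-like protein secreted by mouse neutrophils, stood at 0.38, 0.78 and 0.29 FPKM with isoproterenol, at 4.03, 3.44 and 3.65 FPKM with amiodarone, and at 1.28, 6.47 and 1.48 FPKM in controls. For both, the amiodarone libraries again lay between control 2 and the other controls. Cxcr2 stood at 1.40, 1.64 and 1.67 FPKM with isoproterenol, at 1.27, 1.82 and 2.03 FPKM with amiodarone, and at 1.99, 3.03 and 2.52 FPKM in controls. Its order of group means was the only one of the 9 in which isoproterenol was not lowest: control came first, ivabradine second and metoprolol last, and no neighbours in that order had separate ranges.

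All libraries of the other 4 anti-arrhythmic groups held less S100a8 and S100a9 than the amiodarone libraries. S100a9 averaged 8.50 ± 1.33 FPKM with metoprolol, 6.84 ± 2.12 FPKM with propranolol, 9.14 ± 2.53 FPKM with lidocaine and 11.0 ± 2.69 FPKM with ivabradine (SD, n = 3 each). S100a8 averaged 7.21 ± 1.17 FPKM with metoprolol, 4.99 ± 1.44 FPKM with propranolol, 7.38 ± 2.86 FPKM with lidocaine and 9.55 ± 1.39 FPKM with ivabradine. Ngp averaged 1.98 ± 0.331 FPKM with metoprolol, 1.01 ± 0.592 FPKM with propranolol, 2.05 ± 1.33 FPKM with lidocaine and 1.92 ± 0.335 FPKM with ivabradine. Propranolol was the lowest of the 4 in each of these. The ranges of the 4 groups overlapped in part, but for S100a8 the propranolol libraries (3.83 to 6.60 FPKM) lay below the ivabradine libraries (7.99 to 10.7 FPKM). Cxcr2 averaged 1.34 ± 0.145 FPKM with metoprolol, 1.51 ± 0.130 FPKM with propranolol, 1.52 ± 0.166 FPKM with lidocaine and 1.96 ± 0.322 FPKM with ivabradine, whose 3 libraries lay above the 9 of the other drugs. Csf3r averaged 1.37 ± 0.287 FPKM with metoprolol, 1.42 ± 0.0737 FPKM with propranolol, 1.28 ± 0.378 FPKM with lidocaine and 1.40 ± 0.125 FPKM with ivabradine, and Retnlg averaged 1.06 ± 0.205 FPKM with metoprolol, 0.693 ± 0.475 FPKM with propranolol, 0.957 ± 0.0058 FPKM with lidocaine and 1.55 ± 0.843 FPKM with ivabradine. Ltf averaged 0.737 ± 0.224 FPKM with metoprolol, 0.410 ± 0.210 FPKM with propranolol, 0.683 ± 0.449 FPKM with lidocaine and 0.540 ± 0.0819 FPKM with ivabradine. Camp averaged 0.783 ± 0.366 FPKM with metoprolol, 0.447 ± 0.143 FPKM with propranolol, 0.680 ± 0.427 FPKM with lidocaine and 0.750 ± 0.442 FPKM with ivabradine, and Lcn2 averaged 1.08 ± 0.250 FPKM with metoprolol, 0.787 ± 0.731 FPKM with propranolol, 1.23 ± 0.401 FPKM with lidocaine and 1.11 ± 0.143 FPKM with ivabradine. Ordered by group mean, amiodarone stood first of the 7 in all genes but Csf3r and Cxcr2, and isoproterenol last in all but Cxcr2. Most neighbours in these orders had overlapping ranges. The steps without overlap were propranolol above isoproterenol for S100a9, amiodarone above propranolol for Csf3r, amiodarone above metoprolol for Ltf and amiodarone above control for Camp.

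Over the 21 libraries the granule genes moved together. On the log2(FPKM + 1) scale Pearson's r was 0.97 between Ltf and Ngp, 0.94 between Ngp and Camp, 0.96 between S100a8 and S100a9 and 0.92 between S100a9 and Ngp. Retnlg had r of 0.92 with S100a8 and 0.91 with S100a9, above its 0.76 with Ltf, 0.82 with Ngp and 0.80 with Camp. Csf3r was nearest to Retnlg (0.82), and Cxcr2 had r of 0.10 with Ltf, 0.22 with Ngp and 0.72 with Csf3r. These r values describe libraries that share their groups, and they carry no test. S100a8 and S100a9 are neighbours on chromosome 3 with 0 protein-coding genes between them, and Ltf, Ngp and Camp all lie on chromosome 9, with 8 protein-coding genes between Ngp and Camp and 20 between Ltf and Ngp. Csf3r lies on chromosome 4, Lcn2 on 2, Retnlg on 16 and Cxcr2 on 1.

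Because these genes moved together, the 250 bases before each start were searched on both strands for 2 motifs of factors known from neutrophil maturation, C/EBP (TTNNGNAAT) and PU.1 (GAGGAAG), and no window held both. All 9 genes matched a RefSeq promoter by gene identifier (mouse build GRCm38.p6, another build than the mm9 named for the values). The C/EBP letters occurred before Ltf, Ngp and S100a9, and the PU.1 letters before S100a8, Csf3r and Lcn2. Neither was found before Camp, Retnlg and Cxcr2. Of 32851 promoter windows of that length, 10.2% held the C/EBP letters and 10.6% the PU.1 letters, and a match is a description of the sequence only. The 3 windows with a C/EBP match are shown because Ltf and Ngp carry the same 9 letters, TTGGGCAAT in the motif's direction, while S100a9 carries TTGTGAAAT. They are chr9:111019042-111019291 (forward strand) for Ltf, chr9:110419558-110419807 (forward strand) for Ngp and chr3:90695722-90695971 (reverse strand) for S100a9, written 5′ to 3′ along the gene, with the match in capitals and the last base next to the start.
Ltf: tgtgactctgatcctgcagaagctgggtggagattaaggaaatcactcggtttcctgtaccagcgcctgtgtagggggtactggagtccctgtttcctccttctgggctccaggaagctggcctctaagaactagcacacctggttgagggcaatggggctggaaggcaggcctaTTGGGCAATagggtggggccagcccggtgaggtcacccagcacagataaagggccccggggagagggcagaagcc
Ngp: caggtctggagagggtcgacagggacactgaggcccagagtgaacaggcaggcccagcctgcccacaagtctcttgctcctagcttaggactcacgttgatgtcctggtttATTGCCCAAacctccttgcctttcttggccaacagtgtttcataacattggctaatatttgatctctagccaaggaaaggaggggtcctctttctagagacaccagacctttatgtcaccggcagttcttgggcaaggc
S100a9: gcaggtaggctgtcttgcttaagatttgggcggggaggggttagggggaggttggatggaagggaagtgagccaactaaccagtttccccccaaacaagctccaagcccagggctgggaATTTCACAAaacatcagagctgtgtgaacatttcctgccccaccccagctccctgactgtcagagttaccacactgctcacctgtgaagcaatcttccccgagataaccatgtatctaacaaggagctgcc
Counted from the start, the match begins at -75 in Ltf, where it reads along the gene, and at -139 in Ngp and -131 in S100a9, where it stands on the opposite strand.

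Isoproterenol hearts had less of the mature transcripts than controls. Compared on log2(FPKM + 1) with limma, with Benjamini-Hochberg adjustment over all tested genes and 0.05 as the threshold, 6 of the 9 genes fell and none rose, against 25.8% of all tested genes that fell. S100a9 fell by 2.07 ± 0.48 on the log2 scale (SE, adjusted p = 0.0034), S100a8 by 1.95 ± 0.46 (adjusted p = 0.0039) and Csf3r by 1.03 ± 0.21 (adjusted p = 0.0013). The median change of the 3 mature genes was -1.95, beside -0.09 for all tested genes. Of the precursor genes Ngp fell (-1.08 ± 0.33, adjusted p = 0.016), while Camp (-0.60 ± 0.26, adjusted p = 0.085) and Ltf (-0.38 ± 0.19, adjusted p = 0.14) did not pass. Retnlg fell by 1.25 ± 0.32 (adjusted p = 0.0061) and Cxcr2 by 0.44 ± 0.12 (adjusted p = 0.0076), and Lcn2 stood at -0.91 ± 0.35 (adjusted p = 0.051). These 6 genes were also the ones with every isoproterenol library below every control, as 32.8% of tested genes were. A log2(FPKM + 1) difference understates the change of a gene near or under 1 FPKM, and the ratio of mean FPKM to the control mean was 0.12 for S100a9, 0.14 for S100a8, 0.19 for Ngp and 0.37 for Ltf. Against the mean of controls 1 and 3, it was 0.39 for S100a9, 0.42 for S100a8, 0.38 for Ngp and 0.70 for Ltf.

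The size of these falls depended on control 2. Without it S100a9 stood at -1.11 (adjusted p = 0.0020), S100a8 at -1.08 (0.0058), Csf3r at -0.67 (0.0030) and Retnlg at -0.70 (0.026), all still past the threshold. Ngp at -0.60 (adjusted p = 0.12) and Cxcr2 at -0.34 (adjusted p = 0.051) were not, so that 4 genes were called. Of all tested genes, 18.9% fell without control 2. Ngp also missed without isoproterenol 3 (-1.05, adjusted p = 0.053). Without control 3, Lcn2 (-1.36, adjusted p = 0.0055) and Camp (-0.85, adjusted p = 0.026) were past it too, and Lcn2 was without control 1 (-1.05, adjusted p = 0.047). Without the 4 libraries with transcripts of other tissues Lcn2 passed (-1.33, adjusted p = 0.026) and Cxcr2 missed (-0.46, adjusted p = 0.060). Fitted on these 6 libraries alone, 2 genes were called, Csf3r and Cxcr2 (adjusted p = 0.033 each). S100a8, S100a9 and Retnlg then had adjusted p of 0.062, 0.061 and 0.060, and Ngp was not among the genes tested.

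Amiodarone hearts differed from controls in granule genes. Ngp rose by 1.31 ± 0.33 (adjusted p = 0.0079), Camp by 0.96 ± 0.26 (0.013) and Lcn2 by 0.97 ± 0.35 (0.045), while Cxcr2 fell by 0.38 ± 0.12 (0.023). Ltf stood at 0.94 ± 0.19 (adjusted p = 0.0027), but since it entered the test through the amiodarone libraries its difference here and below is a description, and nothing is read from its call. Of the 8 genes other than Ltf, 3 were higher, against 8.47% of tested genes, and 1 was lower, against 20.6%. The ratio of means to the control was 3.14 for Ltf, 2.72 for Ngp, 2.55 for Camp and 1.91 for Lcn2. Against the mean of controls 1 and 3, it was 5.95 for Ltf, 5.38 for Ngp, 5.30 for Camp and 5.34 for Lcn2. By the same controls it was 4.03 for S100a9, 3.14 for S100a8, 2.69 for Retnlg, 1.01 for Csf3r and 0.76 for Cxcr2. Of the same 8 genes, Camp had every amiodarone library above every control, as 13.0% of tested genes did. None of the mature genes passed: S100a8 stood at 0.67 ± 0.46 (adjusted p = 0.28), S100a9 at 0.95 ± 0.48 (adjusted p = 0.14) and Csf3r at -0.35 ± 0.21 (adjusted p = 0.20), and Retnlg stood at 0.43 ± 0.32 (adjusted p = 0.31).

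These calls depended on control 2. Without it S100a8 (1.54, adjusted p = 0.0014), S100a9 (1.90, adjusted p = 1.4e-04) and Retnlg (0.98, adjusted p = 0.0072) passed the threshold, Ltf, Ngp, Camp and Lcn2 stood at 1.19, 1.79, 1.33 and 1.56 (adjusted p = 8.7e-04, 0.0011, 0.0019 and 0.0011), and 7 genes were called in place of 5, Ltf included in both counts. Of all tested genes, 5.29% were higher and 11.7% lower without control 2. Csf3r then stood at 0.01 (adjusted p = 0.95), with its sign turned, and Cxcr2 at -0.27 (adjusted p = 0.13). Ltf and Ngp passed in each fit that left out 1 library. Camp missed without control 3 (0.70, adjusted p = 0.068), and Lcn2 missed in 13 of the 21 fits that left out 1 library, at 0.51 (adjusted p = 0.25) without control 3, 0.83 (0.12) without control 1 and 0.89 (0.13) without amiodarone 2. Cxcr2 missed without control 3 (-0.37, adjusted p = 0.057) and without amiodarone 1 (-0.25, adjusted p = 0.13), and Csf3r was called lower without control 1 (-0.62, adjusted p = 0.026). Taking out the 4 libraries with transcripts of other tissues, controls and amiodarone included, left Ngp at 1.14 (adjusted p = 0.057), Camp at 0.75 (0.12) and Lcn2 at 0.44 (0.44), with 1 gene called, Ltf (0.88, adjusted p = 0.036).

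**Figure D2:**
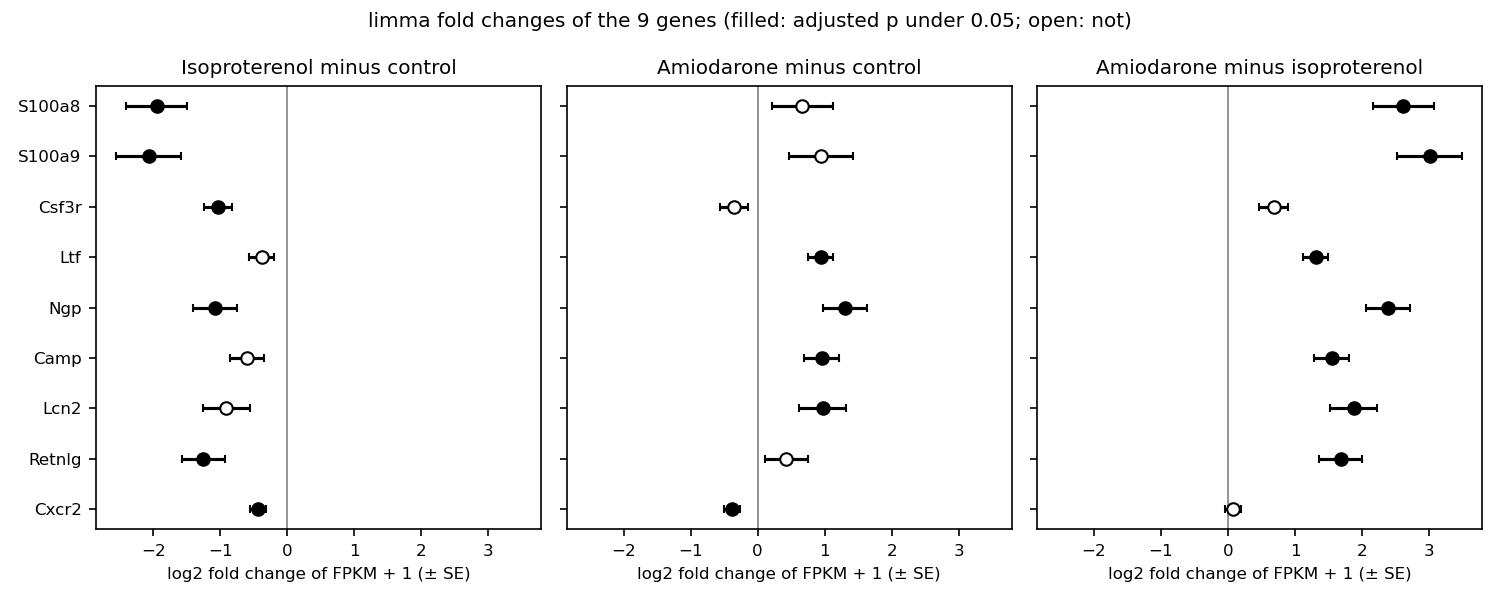
Log2 fold change of FPKM + 1 with its SE for the 9 genes in isoproterenol minus control, amiodarone minus control and amiodarone minus isoproterenol, filled where the adjusted p was under 0.05. Filled points are all at or under -0.44 in the first comparison, and in the second the precursor granule genes and Lcn2 lie at 0.94 to 1.31 with Cxcr2 at -0.38.

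Set directly against isoproterenol hearts, amiodarone hearts had more of nearly all these transcripts. Of the 8 genes other than Ltf, 6 rose, against 5.39% of tested genes. S100a9 rose by 3.01 ± 0.48 (adjusted p = 0.0016), S100a8 by 2.62 ± 0.46 (0.0029) and Ngp by 2.39 ± 0.33 (5.9e-04). Lcn2 rose by 1.88 ± 0.35 (adjusted p = 0.0037), Retnlg by 1.68 ± 0.32 (0.0042) and Camp by 1.55 ± 0.26 (0.0022), and Ltf stood at 1.31 ± 0.19 (0.0011). The receptors stood lower in size, with Csf3r at 0.68 ± 0.21 (adjusted p = 0.0501) and Cxcr2 at 0.07 ± 0.12 (adjusted p = 0.78). In all of the 8 genes other than Ltf except Cxcr2, the 3 amiodarone libraries lay above all 3 isoproterenol libraries, as in 17.1% of tested genes. Macrophage and monocyte genes were higher too, in 5 of 9 tested (Adgre1, C1qa, C1qc, Csf1r and Cx3cr1, median 0.73, beside 0.02 for all tested genes). Of 7 inflammatory monocyte genes, F13a1 and Ms4a6c were higher and Ly6c1 lower, with a median of 0.47. Their part in the result was not tested. No control library enters these differences except through the shared estimate of spread, and the 7 genes past the threshold, Ltf included, stayed there when any 1 library was left out. Without control 1, without control 2 or without lidocaine 3, Csf3r passed as well. Without the 4 libraries with transcripts of other tissues S100a8 (2.41, adjusted p = 0.055) and Retnlg (1.63, adjusted p = 0.061) missed.

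With all groups in the fit, Csf3r was called lower than in controls with each of the other 4 anti-arrhythmic drugs. Metoprolol had 2 of 9 genes lower (22.0% of tested genes fell), Csf3r at -0.79 ± 0.21 (adjusted p = 0.0093) and Cxcr2 at -0.58 ± 0.12 (0.0020). Propranolol had 4 lower (19.8%), with S100a8 at -1.48 ± 0.46 (adjusted p = 0.025), Retnlg at -1.08 ± 0.32 (0.019), Csf3r at -0.76 ± 0.21 (0.013) and Cxcr2 at -0.48 ± 0.12 (0.0070). Lidocaine had 3 lower (26.6%), with Csf3r at -0.86 ± 0.21 (adjusted p = 0.0044), Retnlg at -0.83 ± 0.32 (0.047) and Cxcr2 at -0.47 ± 0.12 (0.0048). Ivabradine had 1 lower (19.1%), Csf3r at -0.77 ± 0.21 (adjusted p = 0.012). No gene rose in any of the 4, and Ltf, Ngp, Camp and Lcn2 passed in none. Nothing is read from these counts beside the shares of all tested genes. The 5 drug groups other than amiodarone, isoproterenol included, therefore had Csf3r called lower, each against the same 3 controls and with the spread shared by all groups. Fitted on the compared groups alone, Csf3r missed in limma with metoprolol (adjusted p = 0.079), propranolol (0.082), lidocaine (0.065) and ivabradine (0.096). With isoproterenol Csf3r was still called in such a fit (adjusted p = 0.033). Macrophage and monocyte genes were lower in these groups too, 7 of 9 with each of metoprolol, propranolol, lidocaine and ivabradine (medians -0.61, -0.70, -0.63 and -0.71), and 4, 4, 3 and 4 of 9 without control 2. Of 5 platelet genes, 5, 5, 4 and 4 were lower in the same order of drugs, and 1 each without control 2. The part of these cells in the Csf3r values was not tested. Of all tested genes, 13.7%, 12%, 19.3% and 13.3% fell without control 2, in the same order of drugs. Of the 9 genes, 1 was then left with propranolol (Cxcr2, -0.37, adjusted p = 0.046) and 0 with ivabradine, where Csf3r stood at -0.40 (adjusted p = 0.0503). Metoprolol kept Csf3r at -0.42 (0.039) and Cxcr2 at -0.48 (0.014), and lidocaine kept Csf3r at -0.49 (0.015) and Cxcr2 at -0.37 (0.033), with Retnlg at -0.28 (0.34). The lidocaine call of Retnlg was lost in 22 of 29 alternatives. Without control 3 the counts were 4 for metoprolol, 7 for propranolol and 5 for lidocaine. Without control 1 they were 4 for metoprolol and 2 for ivabradine, and without propranolol 1 the propranolol count was 2. It was 0 without the 4 libraries with transcripts of other tissues.

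Against isoproterenol hearts, limma called 0 of 9 genes with metoprolol, propranolol and lidocaine, where 8.07%, 14.6% and 16.3% of tested genes differed. At an unadjusted p under 0.05 there were 3 genes with metoprolol (S100a9, Ltf and Ngp), 0 with propranolol and 2 with lidocaine (S100a9 and Ngp). Ngp stood at 0.98 ± 0.33 with metoprolol (adjusted p = 0.070) and 0.93 ± 0.33 with lidocaine (0.059). Ivabradine had 1 gene higher, S100a9 at 1.55 ± 0.48 (adjusted p = 0.033), against 9.96% of tested genes. Single libraries moved these counts: without control 2 they were 3 with metoprolol, 1 with propranolol, 4 with lidocaine and 4 with ivabradine. Without control 3 they were 1, 0, 2 and 2 in the same order of drugs, and the lidocaine count was 1 without lidocaine 1. The ivabradine count was 0 without any 1 isoproterenol library or without ivabradine 1 or 3, and 2 without control 1, propranolol 3, lidocaine 1 or lidocaine 3.

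Over all 7 groups an F test called all of the 8 genes other than Ltf, against 39.9% of tested genes. The 9 genes had adjusted p from 8.7e-04 to 0.010 in this F test. Among the 5 anti-arrhythmic groups alone, with neither isoproterenol nor controls in the contrast, it called 2 of the 8 genes other than Ltf, against 1.06% of tested genes. These were Ngp (adjusted p = 0.023) and Camp (0.033), with Ltf at 0.021, Retnlg at 0.094, Lcn2 at 0.11, S100a8 at 0.12 and S100a9 at 0.14. Their spread was taken from all groups. Fitted on the 5 groups alone, this F test gave adjusted p of 0.0011 for S100a8 and S100a9, 0.0073 for Retnlg and 0.0085 for Lcn2. In all of the 8 genes other than Ltf except Cxcr2, the 3 amiodarone libraries lay above all 12 libraries of the other 4 drugs. So did 0.603% of tested genes. A contrast of amiodarone with the mean of the other 4 groups, was chosen after the data were seen and restates that separation. It called 4 of the 8 genes other than Ltf higher, where 0.177% of tested genes were, and nothing is read from this count. Ngp stood at 1.58 ± 0.26 (adjusted p = 0.020), Lcn2 at 1.36 ± 0.28 (0.041), Camp at 1.24 ± 0.21 (0.021), Retnlg at 1.23 ± 0.25 (0.044) and Ltf at 0.98 ± 0.15 (0.015). S100a8 (1.71 ± 0.37, adjusted p = 0.057) and S100a9 (1.76 ± 0.38, adjusted p = 0.060) had larger differences and missed, their spread being taken from all groups and thus from the controls too. Without control 2 they had adjusted p of 7.2e-05 and 6.6e-06, and the count, Ltf included, was 7, as it was without control 1, control 3 or lidocaine 3.

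Both of these tests lost calls with fewer amiodarone libraries, and the counts here include Ltf. Without amiodarone 1, 2 or 3 the contrast called 0 genes, although the estimates for Ltf stayed at 0.95, 1.08 and 0.91 (adjusted p = 0.18, 0.059 and 0.065). It called 3 without any 1 isoproterenol or metoprolol library, propranolol 1 or 2, lidocaine 1 or 2, or ivabradine 3. The F test of the 5 groups called 0 genes without amiodarone 1 or 3, 1 without amiodarone 2, propranolol 1 or propranolol 2, and 7 without control 2. Its Camp call was lost in 13 of 29 alternatives, also without metoprolol 2, propranolol 3, lidocaine 1 or lidocaine 2. Without the 4 libraries with transcripts of other tissues both called 0.

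The ratio of the summed mature genes to the summed precursor genes also differed between the high libraries. The summed FPKM of S100a8, S100a9 and Csf3r was 57.6, 57.1 and 62.0 with amiodarone and 18.1, 122 and 18.0 in controls. The summed FPKM of Ltf, Ngp and Camp was 11.7, 9.42 and 15.1 with amiodarone and 2.78, 8.80 and 1.65 in controls. The ratio of the mature to the precursor sum was therefore 4.93, 6.06 and 4.10 with amiodarone, and 6.50, 13.9 and 10.9 in controls, with the 2 ranges apart. Isoproterenol libraries had ratios of 6.18, 6.44 and 8.81, and the other 12 libraries ranged from 3.95 in lidocaine 3 to 8.90 in ivabradine 1, so that low ratios were not confined to amiodarone. Control 2 came near the amiodarone libraries in precursor transcripts. It had about as much Ngp (5.16 FPKM) as amiodarone 2 (5.09 FPKM) with S100a9 at 62.2 FPKM, against 30.8 FPKM there. These ratios are given without a test, and ratios of isoproterenol libraries rest on precursor sums of 1.31, 1.26 and 0.680 FPKM.

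**Figure D3:**
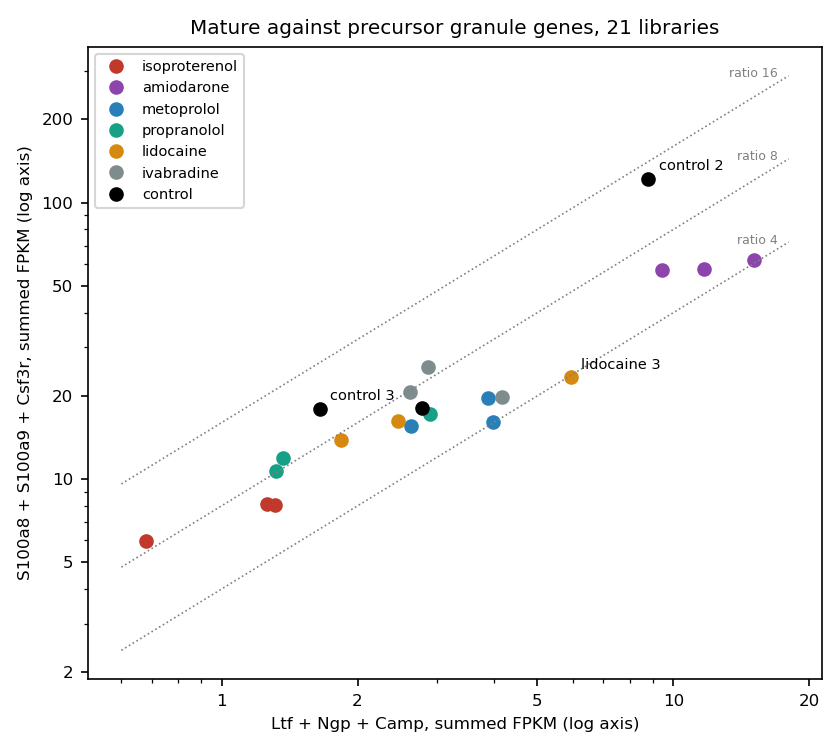
Summed FPKM of S100a8, S100a9 and Csf3r against summed FPKM of Ltf, Ngp and Camp in each of the 21 libraries (both axes log), with dotted lines at constant ratio. The amiodarone libraries lie at 9.42 to 15.1 FPKM of precursor transcripts and between the lines of ratio 4 and 8, while control 2 has 8.80 FPKM of precursor and 122 FPKM of mature transcripts.

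Genes of earlier precursors were near the lower end of detection. The 5 primary granule genes of the list used here, Mpo, Elane, Prtn3, Ctsg and Ms4a3, summed to 0.02 to 0.550 FPKM per library, and none passed the filter. Mpo, the myeloperoxidase, reached 0.13 FPKM at most and Elane, neutrophil elastase, 0.12 FPKM. Their summed levels were 0.370 to 0.490 FPKM with amiodarone and 0.380 to 0.440 FPKM in controls. Cebpe, the factor that drives secondary granule genes, reached 0.18 FPKM at most.

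Other secondary and tertiary granule genes, 7 of 12 tested, fell with isoproterenol in 5 cases (25.8% of all tested genes fell) and passed in 0 cases with amiodarone, where 1 (Cybb) had an unadjusted p under 0.05 in limma. The median changes were -1.32 with isoproterenol and -0.64 with amiodarone, beside -0.09 and -0.08 for all tested genes. Without control 2, Cybb, Hp and Pglyrp1 were lower with isoproterenol, and Pglyrp1 was higher with amiodarone (0.40 ± 0.13, adjusted p = 0.049). Of all tested genes, 18.9% fell with isoproterenol and 5.29% rose with amiodarone in that fit. With all controls, the 5 with isoproterenol were Lyz2 (-1.81 ± 0.60, adjusted p = 0.027), the lysozyme of neutrophils and macrophages, Hp (-1.55 ± 0.42, adjusted p = 0.0083), haptoglobin, Cybb (-1.32 ± 0.32, adjusted p = 0.0045) and Itgam (-1.22 ± 0.34, adjusted p = 0.011), which both cell types express, and Pglyrp1 (-1.01 ± 0.24, adjusted p = 0.0036), a peptidoglycan-binding granule protein. Pglyrp1 stood at 2.92, 2.72 and 2.57 FPKM with amiodarone and at 2.01, 6.11 and 1.66 FPKM in controls, a change of -0.04 ± 0.24 (adjusted p = 0.90). Lyz2, in contrast, stood at 76.6, 129 and 121 FPKM with amiodarone and at 91.8, 276 and 405 FPKM in controls, so that control 3 and not control 2 was its highest library. Mmp9, a tertiary granule protease, was likewise high in controls 2 and 3 (9.22 and 8.27 FPKM) and in metoprolol 3 (9.16 FPKM), and passed neither with isoproterenol (-1.66 ± 0.67, adjusted p = 0.060) nor with amiodarone (-0.93 ± 0.67, adjusted p = 0.30). Of the specific granule genes too low for the test, Mmp8, neutrophil collagenase, stood at 0.53, 0.70 and 0.94 FPKM with amiodarone and 0.21, 0.71 and 0.12 FPKM in controls. Cd177, a surface protein kept in those granules, stood at 0.45, 0.48 and 0.49 FPKM with amiodarone and 0.11, 0.24 and 0.11 FPKM in controls. Mmp8, Cd177 and Ly6g were named after their values were seen, and nothing is read from their levels. Ly6g, the surface marker of mature mouse neutrophils, stood at 0.37, 0.25 and 0.06 FPKM with amiodarone, 0, 0.60 and 0.07 FPKM in controls, and was listed at 0 in all 3 isoproterenol libraries.

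Of 23 further genes of mature neutrophils, 11 were tested. With isoproterenol 7 fell and none rose, with a median change of -1.10, where 25.8% of all tested genes fell. These were the stefins BC100530, Stfa1, Stfa2l1 and Stfa3, and the receptors Csf2rb (-1.10 ± 0.32, adjusted p = 0.013), Ccr1 (-0.76 ± 0.17, adjusted p = 0.0029) and Ptafr (-0.65 ± 0.18, adjusted p = 0.0093), which monocytes carry too. With amiodarone 1 rose, Stfa3 (0.90 ± 0.29, adjusted p = 0.027), and none fell, with a median change of -0.08, as for all tested genes, of which 8.47% rose. Without control 2, 3 fell with isoproterenol (Ccr1, Ptafr and Stfa3), where 18.9% of all tested genes fell. With amiodarone 5 then rose, all stefins, where 5.29% of all tested genes rose. The tested genes of the list other than stefins stood at -0.45 (Csf2rb) to -0.01 (Mxd1) with amiodarone, none of them called. The median of the list was -0.01. Stfa3 stood at 0.29, 0.60 and 0.29 FPKM with isoproterenol, at 4.29, 4.08 and 5.43 FPKM with amiodarone and at 1.05, 5.32 and 1.05 FPKM in controls. Its amiodarone libraries lay above controls 1 and 3 and near control 2. Set against isoproterenol, amiodarone had 5 of the 11 higher, where 5.39% of all tested genes were, all stefins: BC100530 (2.64 ± 0.50, adjusted p = 0.0041), Stfa2 (2.05 ± 0.55, 0.027), Stfa3 (2.01 ± 0.29, 9.9e-04), Stfa1 (1.82 ± 0.39, 0.0093) and Stfa2l1 (1.74 ± 0.44, 0.021). The stefins, inhibitors of cysteine proteases, form a cluster of near-identical copies, so that reads may be split between them and each value is uncertain. Counts of stefins are therefore not counts of separate genes, and nothing is read from them beside the shares of all tested genes.

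The same cluster led the genes most like the members. Over the 21 libraries the non-member genes with the highest r to the mean of the mature genes were Gm5483 (0.95), Stfa3, Stfa2l1 and BC100530 (0.94 each), Pglyrp1 (0.93), Stfa1 (0.92) and Stfa2 (0.91), then Fcrls (0.87), Saa3 (0.82) and Ifi27l2a (0.81). To the mean of the precursor genes they were Stfa3 (0.92), Gm5483 (0.90), BC100530 (0.89), Stfa2 (0.86), Ifi27l2a (0.83), Stfa1 (0.82), Stfa2l1 (0.79), Saa3 (0.78), Pglyrp1 (0.76) and Slpi (0.75). Without amiodarone 3 and control 2, the libraries farthest from the median of the mature mean, Gm5483 stood at 0.91, Pglyrp1 at 0.86 and Saa3 at 0.64. Saa3, an acute-phase protein, averaged 0.487 FPKM with isoproterenol, 4.87 FPKM with amiodarone, 0.520 to 1.73 FPKM with the other 4 drugs and 4.57 FPKM in controls. Ifi27l2a, an interferon-inducible gene, averaged 7.12 FPKM with isoproterenol, 20.8 FPKM with amiodarone, 8.48 to 11.9 FPKM with the other 4 drugs and 17.7 FPKM in controls.

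Markers of other blood cells moved with some of these results and not with others. Of 10 macrophage and monocyte genes 9 were tested: 8 fell with isoproterenol (Adgre1, C1qa, C1qb, C1qc, Csf1r, Cx3cr1, Fcgr1 and Mrc1, median -1.15) and 4 fell with amiodarone (C1qa, C1qb, C1qc and Fcgr1, median -0.42), where 25.8% and 20.6% of all tested genes fell. Without control 2, 8 fell with isoproterenol (median -1.01) and 0 of 9 were called by limma with amiodarone (median -0.29, with 2 at an unadjusted p under 0.05), where 18.9% and 11.7% of all tested genes fell. Their summed level was 86.4 to 126 FPKM with isoproterenol, 155 to 206 FPKM with amiodarone and 204 to 372 FPKM in controls, with control 2 the highest. C1qa, a complement subunit made by macrophages, stood at -1.49 ± 0.21 with isoproterenol (adjusted p = 8.8e-05) and -0.70 ± 0.21 with amiodarone (adjusted p = 0.022). The fall of the mature neutrophil genes with isoproterenol thus came with a fall of macrophage genes, whereas with amiodarone Ngp and Camp rose while 4 macrophage genes fell, or 0 without control 2. Inflammatory monocyte genes summed to 215 to 230 FPKM with isoproterenol, 213 to 241 FPKM with amiodarone and 238 to 337 FPKM in controls. Of 7 of these tested, 5 fell with isoproterenol (Ly6c1, Ly6c2, Ms4a6c, Plac8 and Vcan) and 1, Ly6c1, fell with amiodarone. Without control 2, 3 fell with isoproterenol, and with amiodarone Ly6c1 fell and F13a1 rose.

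Erythroid genes, a gauge of blood left in the tissue, gave 0 calls of 7 in either comparison, and summed to 5199 to 8777 FPKM with isoproterenol, 5912 to 7888 FPKM with amiodarone and 5894 to 9068 FPKM in controls. Of the 7, 0 had an unadjusted p under 0.05 in limma in either comparison. Platelet genes, 5 tested, fell in 5 cases with isoproterenol and in 3 with amiodarone (Gp1bb, Itga2b and Ppbp), where 25.8% and 20.6% of all tested genes fell. Without control 2 they fell in 3 and 0 cases (3 with amiodarone at an unadjusted p under 0.05), where 18.9% and 11.7% of all tested genes fell. Fast skeletal muscle genes summed to 5.41, 6.27 and 6.97 FPKM with isoproterenol, 4.60, 25.3 and 63.9 FPKM with amiodarone, and 18.1, 32.6 and 127 FPKM in controls. Of 3 tested, 3 fell with isoproterenol (median -2.65) and 0 passed with amiodarone (median -1.04), with 0 at an unadjusted p under 0.05 in limma. Both counts were the same without control 2. Lung epithelial genes summed to 255 FPKM in amiodarone 2, against 0.05 and 0.07 FPKM in the other amiodarone libraries, and that library was the lowest of the 3 in S100a8, S100a9, Ltf, Ngp and Retnlg, the highest in Lcn2 and the middle one in Camp. The part of macrophages, platelets or adhering tissue, skeletal muscle included, in the neutrophil values was not tested.

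**Figure D4:**
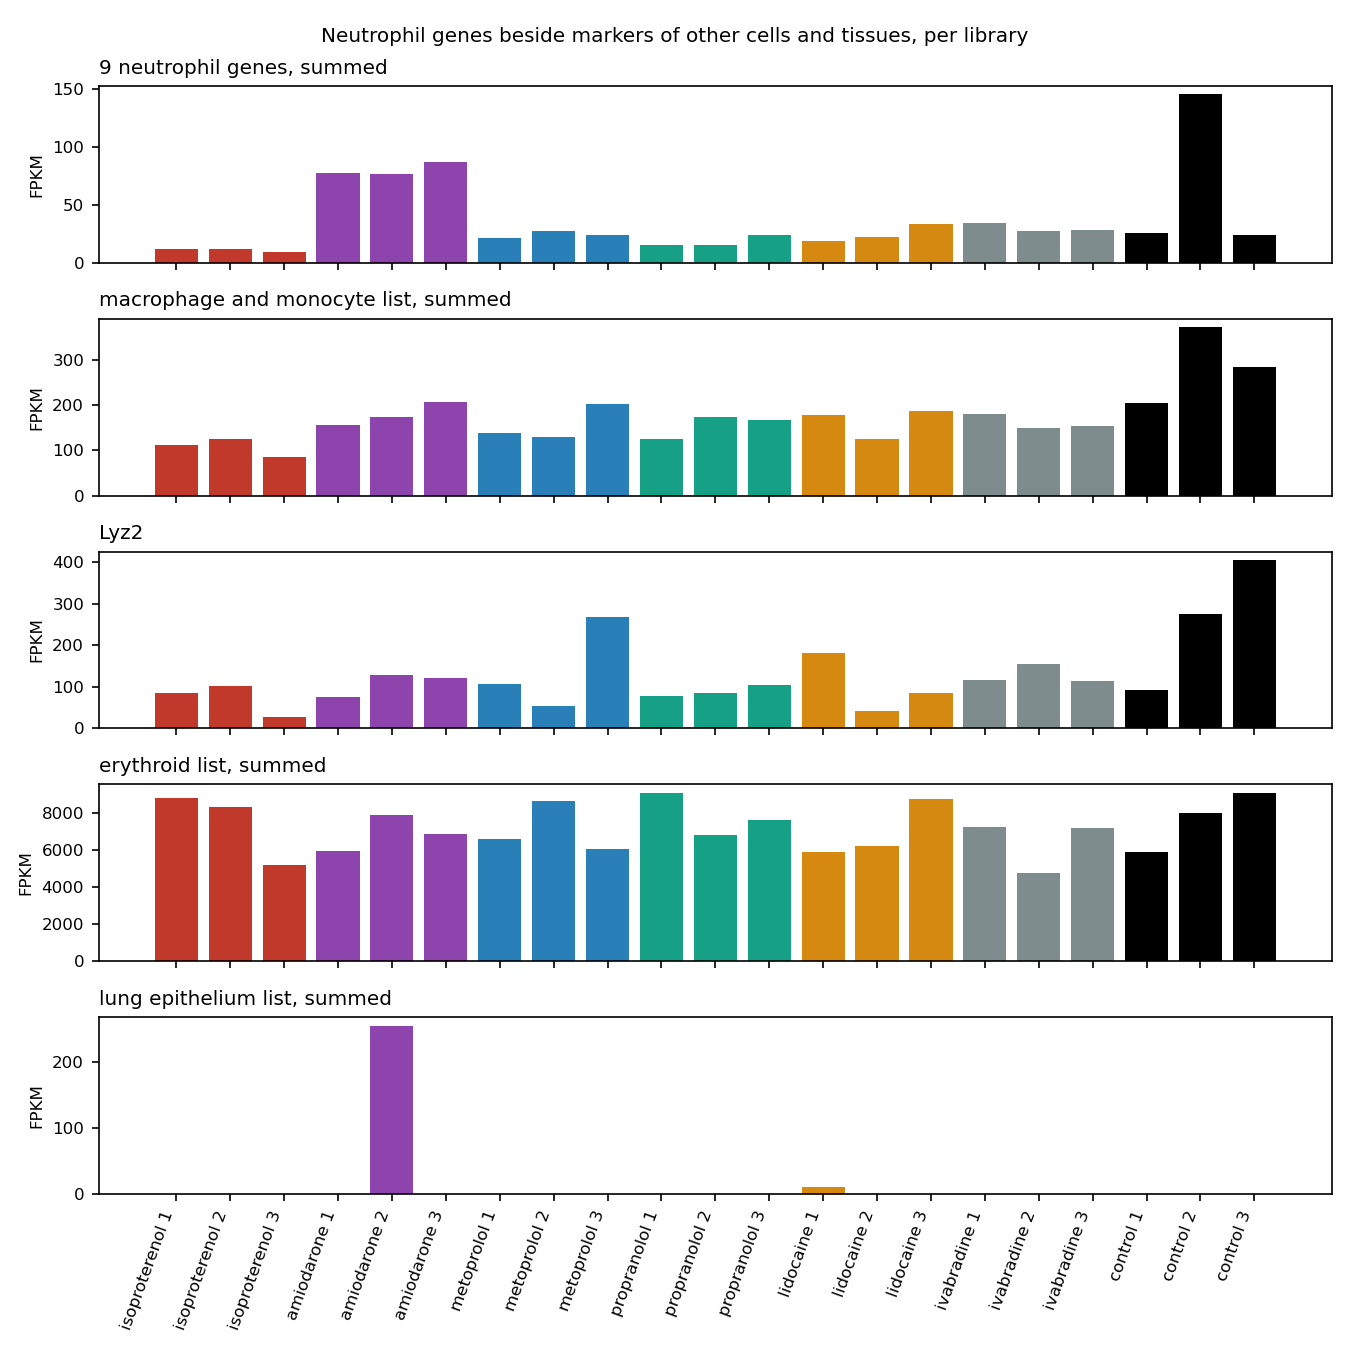
Summed FPKM per library of the 9 neutrophil genes, of macrophage and monocyte genes, of Lyz2 alone, and of erythroid and lung epithelial genes, coloured by group. The amiodarone libraries stand out in the neutrophil sum and not in the macrophage or erythroid sums, control 2 is highest in the neutrophil and macrophage sums, control 3 is highest in Lyz2 (405 FPKM), and lung transcripts are nearly all in amiodarone 2 (255 FPKM).

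Few of the signals that attract or sustain neutrophils were abundant enough to be tested. Of 9 CXCR2 ligands and growth factors 3 were tested, and Cxcl12, the ligand that retains neutrophils in the marrow through Cxcr4, fell with isoproterenol (-0.44 ± 0.12, adjusted p = 0.012) and with amiodarone (-0.55 ± 0.12, adjusted p = 0.0042). Ppbp, a platelet chemokine that binds Cxcr2, fell by 1.51 ± 0.29 with isoproterenol (adjusted p = 9.1e-04) and by 0.95 ± 0.29 with amiodarone (adjusted p = 0.021). Cxcl1, the remaining tested gene, was called in neither comparison. Without control 2 it stood at 0.00 with isoproterenol (adjusted p = 0.99) and at 0.10 with amiodarone (adjusted p = 0.61). Csf3, which encodes G-CSF, reached 0.13 FPKM at most, and Cxcl5 reached 1.90 FPKM in control 2 and no more than 0.31 FPKM elsewhere. Il1b stood at 0.70, 1.17 and 0.71 FPKM with amiodarone and 0.52, 2.39 and 0.47 FPKM in controls, too low to be tested. Among the transcription factors Spi1, which encodes PU.1, fell with both isoproterenol (-1.12 ± 0.25, adjusted p = 0.0025) and amiodarone (-0.69 ± 0.25, adjusted p = 0.045), as did Cebpd (-0.41 ± 0.15, adjusted p = 0.040, and -0.45 ± 0.15, adjusted p = 0.032), and Cebpa fell with isoproterenol (-0.92 ± 0.26, adjusted p = 0.012). Cebpb, the last of 4 tested transcription factors, was called in neither comparison. Of 7 tested receptors for calprotectin, lipocalin and lactoferrin, Cd14 fell with isoproterenol (-1.22 ± 0.27, adjusted p = 0.0022), and limma called 0 with amiodarone, with 0 at an unadjusted p under 0.05. Beside these lists, 25.8% of all tested genes fell with isoproterenol and 20.6% with amiodarone, and nothing is read from the number of calls. Without control 2, Ppbp (-1.23), Spi1 (-0.87) and Cd14 (-1.01) were still called with isoproterenol (adjusted p = 0.0076, 0.020 and 0.017) and Cxcl12 with amiodarone (-0.40, adjusted p = 0.029), and the other calls of this paragraph were lost. In that fit 18.9% of all tested genes fell with isoproterenol and 11.7% with amiodarone.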

How the data were processed

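RNA from the heart apex was sequenced on a BGISEQ-500, after oligo dT selection or rRNA depletion (the labels do not say which). The authors deposited 1 table of FPKM for 21 libraries, whose groups were taken from the labels. HISAT, Bowtie2 2.2.5 and the build mm9 are named in the submitters' processing notes, and the counter, annotation and filters are not given in the sources used here. FPKM are not counts, so no count test was used. Genes at 1 FPKM or more in at least 3 libraries (12433 of 18762) were compared on log2(FPKM + 1) with limma 3.58.1 in R 4.3.3, with 1 mean per group, all 21 libraries (14 residual degrees of freedom), a variance trend and Benjamini-Hochberg adjustment over all tested genes (threshold 0.05). The scripts were tested on simulated data, and tables were made with Python 3.11.15 and pandas 2.3.3.

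The members and the gene lists were chosen with earlier results of these data known. All 9 members were named. So were the 10 genes most like each set and, of each list, the called and most abundant genes. Mmp8, Cd177, Ly6g, Il1b, Cxcl5, Csf3, Elane and Cebpe were added after their values were seen, as were the contrast of amiodarone with the mean of the other 4 drugs, the counts without Ltf, and the ratios and marker list counts without control 2. Same-numbered libraries did not vary together: over 63 pairs from different groups the correlation of deviations from the group mean ran from -0.54 to 0.29 (median -0.03), so the numbers were not treated as pairs. Fragment steps were estimated from the spacing of low FPKM values. Promoter sequences are those of RefSeq on GRCm38.p6. The alternatives changed 1 choice each: the pseudocount (0.1), the filter (none, or 5 FPKM), the scaling (median of ratios), the libraries in the fit (the compared groups, or all but 1 or 4 libraries), the moderation (robust, or without a trend) and a replicate block.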

Additional observations from a re-analysis of the deposited data

How the results depend on the processing

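The counts below are of called members out of 9, Ltf included. Under the filter at 5 FPKM only S100a8, S100a9 and Ngp could be tested, which gave 3 calls for isoproterenol against control, 1 for amiodarone, 0 for metoprolol, 1 for propranolol, 0 for lidocaine, 0 for ivabradine, 3 for amiodarone against isoproterenol, 2 for ivabradine against isoproterenol, 3 in the F test of 7 groups, 1 in that of 5 groups and 1 for amiodarone against the other 4 drugs. With only the compared groups in the fit, there were 2 calls for isoproterenol against control, 2 for amiodarone, 1 each for metoprolol, propranolol and lidocaine and 0 for ivabradine. Against isoproterenol there were then 3 for metoprolol, 1 for propranolol, 1 for lidocaine and 3 for ivabradine, and 7 in the F test of 5 groups. With a pseudocount of 0.1 the counts were 1, 2 and 4 for metoprolol, lidocaine and ivabradine against isoproterenol, 1 in the F test of 5 groups and 3 for amiodarone against the other 4. With no filter they were 0 for ivabradine against isoproterenol, 1 in that F test and 1 for amiodarone against the other 4, and with robust moderation 0, 1 and 3. Without the variance trend the last was 3. Without the 4 libraries with transcripts of other tissues the counts were 1 for amiodarone and 0 for propranolol against control, and 0 for ivabradine against isoproterenol, the F test of 5 groups and amiodarone against the other 4. In other cases the cause was not tested.

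Leaving out 1 library at a time gave 4 to 8 calls for isoproterenol against control, 2 to 7 for amiodarone, 2 to 4 for metoprolol, 1 to 7 for propranolol, 2 to 5 for lidocaine and 0 to 2 for ivabradine. Against isoproterenol it gave 7 to 8 for amiodarone, 0 to 3 for metoprolol, 0 to 1 for propranolol, 0 to 4 for lidocaine and 0 to 4 for ivabradine. The F tests gave 8 to 9 over 7 groups and 0 to 7 over 5, and amiodarone against the other 4 gave 0 to 7. The sign turned in 3 values, none past the threshold: Csf3r in amiodarone minus control without control 2 (0.01, range -0.62 to 0.01 over libraries left out), and Cxcr2 without amiodarone 3, at -0.02 both against isoproterenol and against the other 4 drugs (range -0.02 to 0.19 in each). Of single-gene values, 453 kept direction and side of the threshold under the other alternatives, 63 lost a call and 11 gained one. Rescaling shifted the median of all genes from -0.09 to 0.01 in isoproterenol minus control and ended the amiodarone call of Cxcr2 (-0.31, adjusted p = 0.058). With the replicate block the counts were 7 for isoproterenol against control and 5 for amiodarone against control, and no other count of calls moved by over 1.5 times. The lowest values rest on few fragments, 1 to 8 for Camp, Lcn2 and Retnlg in isoproterenol libraries.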
